A study of Homo sapiens with 18 samples.

Results

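The genes described here encode aminoacyl-tRNA synthetases, the enzymes that load amino acids onto their tRNAs. They were taken as a named list of 36 genes out of the 56269 in the expression table, and the rule used no measured value. A symbol ending in 2 marked the mitochondrial enzyme, which gave 16 genes, and the other 20 were counted as cytosolic, among them GARS and KARS, whose genes make both a cytosolic and a mitochondrial form. The table uses the older symbols, so that AARS is the gene now called AARS1. Expression was measured by sequencing of polyA RNA in IMR90 cells, a line of primary human lung fibroblasts, in 6 groups of 3 libraries. Cells received PBS, cNSF or fNSF for 6 h. cNSF-HA is hyaluronan of very high molecular mass from naked mole-rat skin fibroblasts, and fNSF-HA is the same material partly fragmented with hyaluronidase, both at 20 μg/ml. In 3 of the groups that medium was then taken off, the oxidant tBHP was given at 200 μM for 1 h, and RNA was collected 6 h after the oxidant was added. The other 3 groups were collected at the end of the pre-incubation, so the effect of tBHP and that of the further hours in culture cannot be told apart.

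A synthetase activates its amino acid with ATP and transfers it to the matching tRNA, and translation in the cytosol and in mitochondria use largely separate sets of these enzymes, both encoded in the nucleus. In the cytosol a group of synthetases is held together with the scaffold proteins AIMP1, AIMP2 and EEF1E1 in the multisynthetase complex. Uncharged tRNA activates the kinase GCN2, and the transcription factor ATF4 that is then made is known to raise the transcription of many cytosolic synthetase genes through the C/EBP-ATF response element.

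All 8 fibroblast markers were expressed, and KRT5, SFTPC and CDH5 were at 0 in every library. Of the markers of other cell types, KRT19 (76.6 to 197 normalized counts), VWF (median 13.5, lowest 3.73) and CD68 (0.977 to 11.3) exceeded 10 in some library. The summed endothelial markers, nearly all VWF, were at 3.73 to 14.8 without tBHP and 13.1 to 25.1 after it, the leukocyte markers at 1.97 to 5.86 and 2.19 to 11.3, and the epithelial markers at 174 to 198 and 81.9 to 184, and their part in the responses below was not tested. The libraries held 20261103 to 26287660 reads counted on genes. Values are normalized counts, that is, reads divided by a size factor of the library. Replicates were less alike after tBHP: a chi-square statistic comparing the reads of a replicate pair, divided by its degrees of freedom, was 1.48 to 2.69 without tBHP and 2.86 to 71.2 after it, and the highest value was between replicates 2 and 3 of fNSF-HA after tBHP. The study describes its replicates as biological, and the labels do not say what was separate between them, so p-values measure the spread between these libraries. The median SD of the synthetases within groups was 0.041 on the log2 scale without tBHP and 0.11 after it, against 0.076 and 0.21 for all genes tested. In RNA from a whole culture, fewer cells of one kind and less RNA per cell cannot be told apart.

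Of the 36 genes, 35 had a mean of at least 10 normalized counts and were tested, 20 cytosolic and 15 mitochondrial. SARS2, the mitochondrial seryl-tRNA synthetase, was listed at 0 reads in all 18 libraries. In the GENCODE annotation, 57.0% of the exon bases of SARS2 lie within exons of other genes, and how reads from such bases were assigned was not tested. GTF2H4, which shares 1858 exon bases with VARS2, and the translation elongation gene EEF1G were also at 0 in all 18 libraries, so a 0 in this table does not show that a gene was silent, and the level of VARS2 is uncertain. Other overlaps were smaller, with 22.0% of the exon bases of VARS2, 15.8% of HARS2, 13.3% of MARS and 10.6% of WARS shared with another gene. The library kit does not mark strand, so reads from shared bases cannot be told apart, including the 437 bases that HARS and HARS2 share on opposite strands.

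The promoter sequences are shown first, because a known ATF4 pattern lies in 6 of the cytosolic genes that rose after tBHP. The core of the C/EBP-ATF response element, TGATGNAA, was searched on both strands in the RefSeq promoter windows (GRCh38.p14, from 250 bases before to 50 bases after the gene start), in which 30 of the 36 genes were found. DARS, LARS, VARS, YARS, AARS2 and VARS2 were not. Below, each match is given 5′ to 3′ on the strand of the gene with the 8 letters of the match in capitals.
AARS: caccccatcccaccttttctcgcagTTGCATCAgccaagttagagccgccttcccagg
CARS: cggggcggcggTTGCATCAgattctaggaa
IARS: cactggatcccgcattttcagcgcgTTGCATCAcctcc
MARS: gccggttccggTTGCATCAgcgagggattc
NARS: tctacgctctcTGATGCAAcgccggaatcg
TARS: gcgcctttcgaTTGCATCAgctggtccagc
YARS2: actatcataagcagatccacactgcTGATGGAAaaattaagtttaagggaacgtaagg
The stretches are chr16:70289661-70289718 on the minus strand for AARS, chr11:3057407-3057436 on the minus strand for CARS and chr9:92293698-92293735 on the minus strand for IARS. For MARS the stretch is chr12:57488053-57488082 on the plus strand, for NARS chr18:57621804-57621833 on the minus strand, for TARS chr5:33440956-33440985 on the plus strand and for YARS2 chr12:32756062-32756119 on the minus strand. Counted from the gene start, the matches began at -187 in AARS, -2 in CARS, -13 in IARS, -4 in MARS, 14 in NARS, 2 in TARS and -197 in YARS2. Those of CARS, MARS and TARS thus began within a few letters of the start. The 6 cytosolic genes all held the form TGATGCAA or, read on the other strand, TTGCATCA, whereas YARS2 held another base at the open position. Of all 35116 promoters in the table, 1270 (3.62%) held the open pattern and 304 (0.866%) the form with C, a comparison chosen after the matches were seen. The matches describe letters and not bound sites, and the absence of a match in EPRS, GARS, SARS and WARS says only that these letters are not in the window.

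The first question was how the synthetases responded to tBHP in cells that had received PBS. Cytosolic synthetases mostly rose, and mitochondrial ones were called in both directions. Among the 20 cytosolic genes, 13 were called higher and 3 lower (limma on log2 of the normalized count plus 1, Benjamini-Hochberg adjustment over 13686 genes, threshold 0.05). Of all genes tested, 24.2% were called higher and 26.9% lower. Among the 15 mitochondrial genes, 5 were called higher and 5 lower, which is not far from these shares of all genes. The median log2 change was 0.37 for the cytosolic genes, -0.17 for the mitochondrial genes and 0.004 for all genes tested. The counts differ between the classes, but no test of the classes against each other was made. Cytosolic synthetases took up 0.353% to 0.364% of the reads in the 9 libraries without tBHP and 0.484% to 0.545% in the 9 after it. Mitochondrial synthetases took up 0.0522% to 0.0546% without tBHP and 0.0482% to 0.0514% after it. As shares of reads both classes thus lay apart without overlap. As summed normalized counts the cytosolic genes again lay apart, at 77075 to 80431 without tBHP and 113647 to 123089 after it, but the mitochondrial sums overlapped, at 11609 to 11924 and 10987 to 11841.

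**Figure D1:**
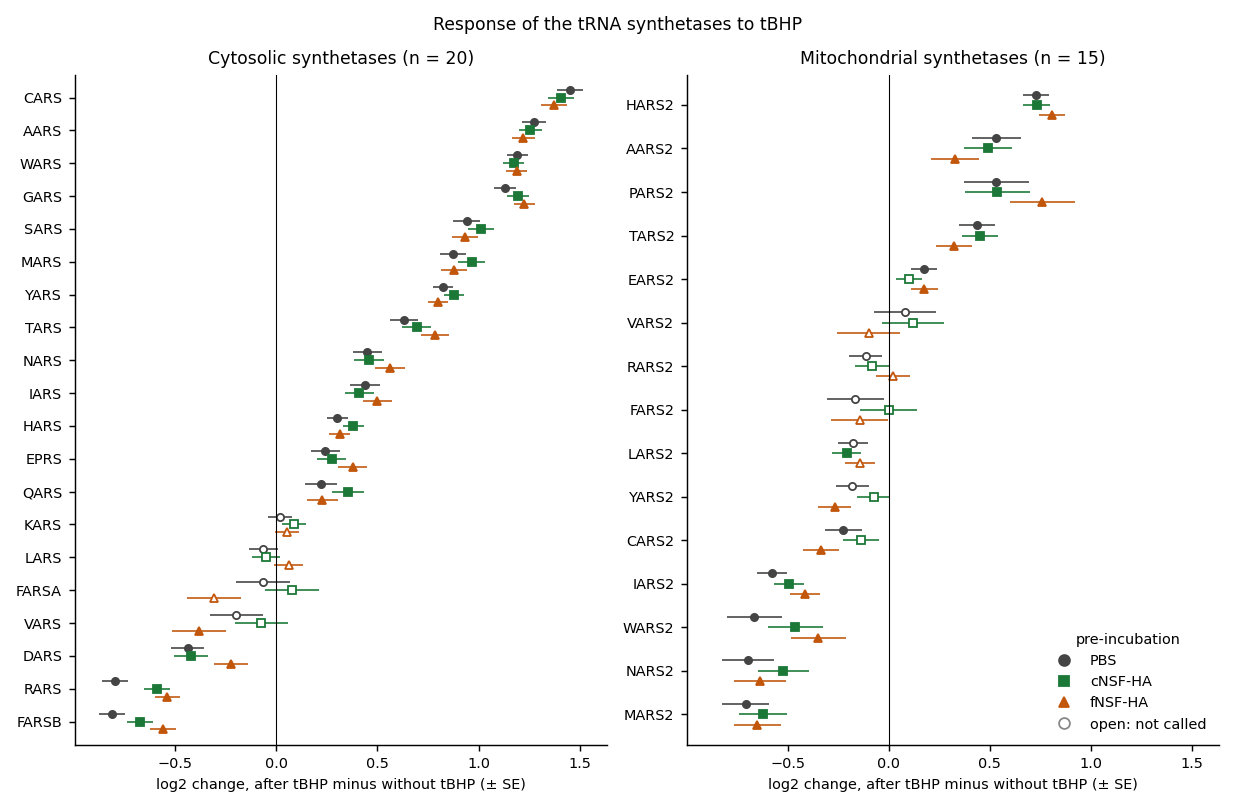
Log2 change after tBHP against without tBHP (x axis, ± SE of the limma fit) for the 20 cytosolic and 15 mitochondrial synthetases tested, with a circle for PBS, a square for cNSF-HA and a triangle for fNSF-HA and open symbols for changes not called. The cytosolic genes run from -0.81 (FARSB) to 1.45 (CARS) in PBS cells and the mitochondrial genes from -0.71 (MARS2) to 0.73 (HARS2).

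The largest increases were in the cysteinyl-, alanyl-, tryptophanyl- and glycyl-tRNA synthetases of the cytosol. CARS was at 1067, 1145 and 1028 normalized counts in PBS cells and at 3106, 2832 and 2924 after tBHP, a log2 change of 1.45 (SE 0.06, adjusted p by limma = 7.13e-12). AARS was at 3815, 3745 and 3817 and at 9656, 8907 and 8980 after tBHP, a log2 change of 1.27 (SE 0.06). For both genes every tBHP library lay above the highest PBS library. WARS, the tryptophanyl enzyme, a fragment of which is known to inhibit vessel growth, was at 2749, 2725 and 2696 and at 6202, 6071 and 6404 after tBHP, a log2 change of 1.19 (SE 0.05). GARS, the dual gene that serves both compartments, was at 6846, 6898 and 6654 and at 14276, 15192 and 15202 after tBHP, a log2 change of 1.13 (SE 0.05). These 4 genes were 2.19-fold to 2.73-fold higher.

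A further group rose by less. SARS, which charges serine and selenocysteine tRNAs, was at 5145, 5192 and 4950 normalized counts and at 10080, 9488 and 9775 after tBHP, a log2 change of 0.94 (SE 0.06). MARS, the methionyl enzyme that serves initiator and elongator tRNAs, was at 4450, 4245 and 4408 and at 8338, 7667 and 8024 after tBHP, a log2 change of 0.87 (SE 0.06). Both groups of 3 lay apart. YARS, the tyrosyl enzyme, was at 4201, 4337 and 4261 and at 7667, 7469 and 7533 after tBHP, a log2 change of 0.82 (SE 0.05). TARS, the threonyl enzyme, was at 5045, 5134 and 5035 and at 7238, 8076 and 8290 after tBHP, a log2 change of 0.63 (SE 0.07). NARS, the asparaginyl enzyme, was at 4444, 4738 and 4753 and at 6001, 6689 and 6365 after tBHP, a log2 change of 0.45 (SE 0.07). The other cytosolic genes called higher were IARS (0.44, SE 0.07), HARS (0.30, SE 0.05), EPRS, the fused glutamyl and prolyl enzyme (0.24, SE 0.07), and QARS (0.22, SE 0.08, adjusted p by limma = 0.026). The groups of 3 libraries did not overlap for any of these 13 genes. QARS lost its call without replicate 2 or 3 of PBS or replicate 1 of PBS after tBHP (adjusted p by limma 0.079 to 0.13), and its increase was gone when a trend with GC content and length was removed from each library (log2 change -0.028). That fit also moved EPRS to 0.54, IARS to 0.68 and HARS to 0.17, all still called higher.

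Genes for 3 cytosolic enzymes fell. FARSB, the beta subunit of phenylalanyl-tRNA synthetase, was at 2645, 2697 and 2630 normalized counts and at 1424, 1600 and 1518 after tBHP, a log2 change of -0.81 (SE 0.07, adjusted p by limma = 1.78e-08). RARS, the arginyl enzyme of the multisynthetase complex, was at 3690, 3603 and 3553 and at 1985, 2036 and 2227 after tBHP, a log2 change of -0.80 (SE 0.06). Both were reduced to below 0.6 of their level in PBS cells, at 0.569 for FARSB and 0.576 for RARS. With the GC and length trend removed the falls were smaller, to 0.712 (log2 change -0.49) and 0.725 (-0.46), and both were still called lower. DARS, the aspartyl enzyme of the same complex, was at 2089, 2006 and 1902 and at 1348, 1542 and 1538 after tBHP, a log2 change of -0.44 (SE 0.08). FARSA, the alpha subunit that pairs with FARSB, was at 1930, 1952 and 1779 and at 2031, 1686 and 1707 after tBHP and was not called (log2 change -0.07, SE 0.13). The partner subunits of this enzyme therefore differed in call, and the difference between them was not tested. With the GC and length trend removed, FARSA was called lower (-0.40) together with VARS (-0.55), and DARS (-0.09, adjusted p by limma = 0.198) was not called. KARS (0.02, SE 0.06), LARS (-0.06, SE 0.07) and VARS (-0.20, SE 0.13) were not called, and LARS was called higher with the trend removed (0.27).

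Split by a list from common knowledge, the 11 cytosolic synthetases commonly described as ATF4 targets (AARS, CARS, EPRS, GARS, IARS, MARS, NARS, SARS, TARS, WARS and YARS) were all called higher, with a median log2 change of 0.87, beside 24.2% of all genes called higher and 26.9% lower. Of the 9 other cytosolic genes, HARS and QARS were called higher, DARS, FARSB and RARS lower, and FARSA, KARS, LARS and VARS in neither direction, with a median of -0.07. Each of the 11 was also called higher with the GC and length trend removed, beside 26.2% of all genes, by 0.54 (EPRS) to 1.29 (CARS), and kept its call in all 3 pre-incubations with each library left out. The list was written with results of these data known and is no independent evidence of a direction. ATF4 itself was at 5605, 5462 and 5444 normalized counts and at 15031, 13760 and 14762 after tBHP, a log2 change of 1.40 (SE 0.07). All 7 reference genes of the integrated stress response were called higher, with the largest log2 changes in ATF3 (4.01), TRIB3 (3.74), SESN2 (3.06) and DDIT3 (2.92). The cytosolic genes with the motif shown above were called higher without exception, and YARS2, the mitochondrial gene with a match, was not called (-0.18, SE 0.08). The cytosolic genes with a match rose by 0.44 (IARS) to 1.45 (CARS). Of the cytosolic genes with a window but no match, WARS, GARS and SARS rose by 0.94 to 1.19, and the other 7 (HARS, EPRS, QARS, KARS, FARSA, RARS and FARSB) had changes of -0.81 to 0.30. With the GC and length trend removed, EPRS without a match (0.56) rose more after cNSF-HA than NARS with one (0.50). A relation between the motif and the changes was not tested.

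**Figure D2:**
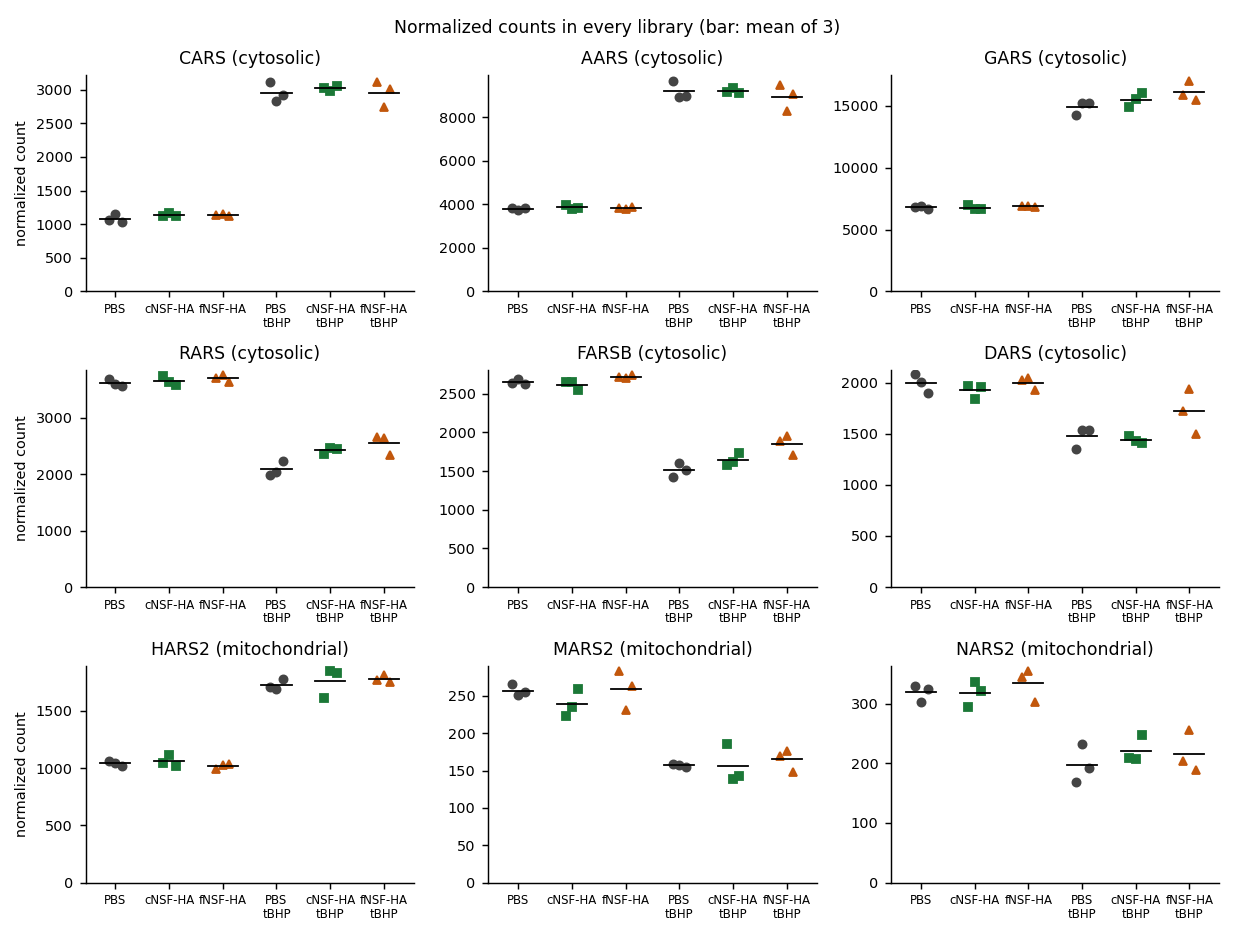
Normalized counts (y axis, from 0) of 9 synthetases in each of the 18 libraries, by group on the x axis, with a bar at the mean of the 3 replicates. CARS, AARS, GARS and HARS2 after tBHP lie above every library without it, RARS, FARSB, MARS2 and NARS2 lie below, and DARS overlaps because of 1 library of fNSF-HA after tBHP at 1939.

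Mitochondrial synthetases moved both ways and by less than the leading cytosolic genes. HARS2, the mitochondrial histidyl enzyme, rose most, from 1058, 1048 and 1019 normalized counts to 1708, 1692 and 1774 after tBHP, a log2 change of 0.73 (SE 0.07, adjusted p by limma = 7.07e-08). AARS2, the alanyl enzyme, went from 693, 610 and 686 to 1093, 913 and 880, a log2 change of 0.53 (SE 0.12). HARS2 and AARS2 libraries did not overlap between the groups. PARS2, the prolyl enzyme, was at 106, 126 and 91.7 and at 191, 172 and 114 after tBHP, a log2 change of 0.53 (SE 0.16, adjusted p by limma = 0.011). TARS2, the threonyl enzyme, went from 489, 482 and 549 to 696, 674 and 687, a log2 change of 0.44 (SE 0.09). EARS2, the glutamyl enzyme, went from 1062, 1115 and 1114 to 1319, 1195 and 1204, a log2 change of 0.17 (SE 0.06, adjusted p by limma = 0.032). A PARS2 library after tBHP lay within the range of the PBS libraries. Without replicate 3 of PBS, or without replicate 1 of PBS after tBHP, PARS2 and EARS2 both lost their calls and 3 mitochondrial genes were called higher. EARS2 lost it also without replicate 1 or 2 of PBS (adjusted p by limma 0.057 to 0.14 over these fits), and with the GC and length trend removed its change was -0.047. The increases of AARS2 (0.25), TARS2 (0.23) and PARS2 (0.34) were also smaller in that fit.

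MARS2, the mitochondrial methionyl enzyme, fell from 266, 251 and 255 normalized counts to 159, 158 and 154, a log2 change of -0.71 (SE 0.12, adjusted p by limma = 7.35e-05). NARS2, the asparaginyl enzyme, fell from 329, 303 and 324 to 169, 232 and 193, a log2 change of -0.70 (SE 0.13). WARS2, the tryptophanyl enzyme, fell from 283, 284 and 281 to 165, 185 and 185, a log2 change of -0.66 (SE 0.14). No tBHP library of these genes reached a PBS library. IARS2, the isoleucyl enzyme, fell from 3105, 3170 and 3095 to 1908, 2334 and 2061, a log2 change of -0.58 (SE 0.07). CARS2, the cysteinyl enzyme, fell from 1224, 1250 and 1263 to 1103, 1097 and 1002, a log2 change of -0.22 (SE 0.09, adjusted p by limma = 0.044), and lost its call with any 1 of the 6 libraries left out (adjusted p by limma 0.055 to 0.15). FARS2 (-0.17, SE 0.14), LARS2 (-0.18, SE 0.07, adjusted p by limma = 0.051), RARS2 (-0.11, SE 0.08), VARS2 (0.08, SE 0.15) and YARS2 (-0.18, SE 0.08) were not called. The genes that fell had transcripts of lower median GC content than those that rose. Among the cytosolic genes it was 41.0% (3 genes, 40.6% to 41.6%) against 49.9% (13 genes, 42.3% to 55.3%). Among the mitochondrial genes it was 44.2% (5 genes, 42.4% to 55.8%) against 54.3% (5 genes, 49.6% to 59.1%), and these ranges overlapped. With the GC and length trend removed, 13 cytosolic genes were called higher and 4 lower, and 4 mitochondrial genes higher and 8 lower, beside 26.2% and 30.5% of all genes. The falls of IARS2 (-0.30) and NARS2 (-0.46) were smaller and that of CARS2 (-0.48) larger. FARS2, LARS2 and YARS2 were then called lower and RARS2 higher (0.19), while PARS2 (adjusted p by limma = 0.050) and EARS2 were not called.

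Cytosolic and mitochondrial enzymes for the same amino acid could be set side by side in 16 pairs. The log2 ratio of the cytosolic to the mitochondrial gene, taken within each library, rose after tBHP in all 3 pre-incubations in 10 pairs and fell in all 3 in 5. With the GC and length trend removed, EPRS over PARS2 was no longer among those that fell (0.20 in PBS cells, 0.14 after cNSF-HA and -0.15 after fNSF-HA), and FARSA over FARS2 fell in all 3 (-0.07, -0.17 and -0.15). In 5 pairs the cytosolic gene was called higher and the mitochondrial gene lower (CARS and CARS2, IARS and IARS2, MARS and MARS2, NARS and NARS2, WARS and WARS2). In PBS cells the ratio rose by 1.86 for WARS over WARS2, by 1.68 for CARS over CARS2 and by 1.58 for MARS over MARS2. It rose by 1.15 for NARS over NARS2 and by 1.01 for both IARS over IARS2 and YARS over YARS2. The libraries lay apart for all 6 pairs in every pre-incubation. For alanine both genes were called higher, AARS more than AARS2, and the ratio rose by 0.74. Histidine was the opposite case, since HARS2 (0.73) rose more than HARS (0.30) and the ratio fell by 0.42. For threonine both genes were called higher, and the ratio rose by 0.19 with overlapping libraries. EPRS was paired with both EARS2 (ratio change 0.07) and PARS2 (-0.29), all 3 of which were called higher, and the libraries overlapped. The ratio of RARS to RARS2 fell by 0.68 and that of FARSB to FARS2 by 0.65, without overlap. With that trend removed, the fall was 0.65 on the log2 scale for RARS over RARS2 but 0.16 for FARSB over FARS2, and the rise was 0.57 for LARS over LARS2, 0.57 for TARS over TARS2 and 0.58 for EPRS over EARS2. For LARS over LARS2 (0.11), FARSA over FARS2 (0.10) and VARS over VARS2 (-0.28), with no gene called, the libraries overlapped. No pair had the cytosolic gene called lower and the mitochondrial gene called higher with the trend left in. With it removed, RARS was called lower (-0.46) and RARS2 higher (0.19) in PBS cells. LARS and LARS2 and YARS and YARS2 then joined the pairs with the cytosolic gene called higher and the mitochondrial gene lower.

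**Figure D3:**
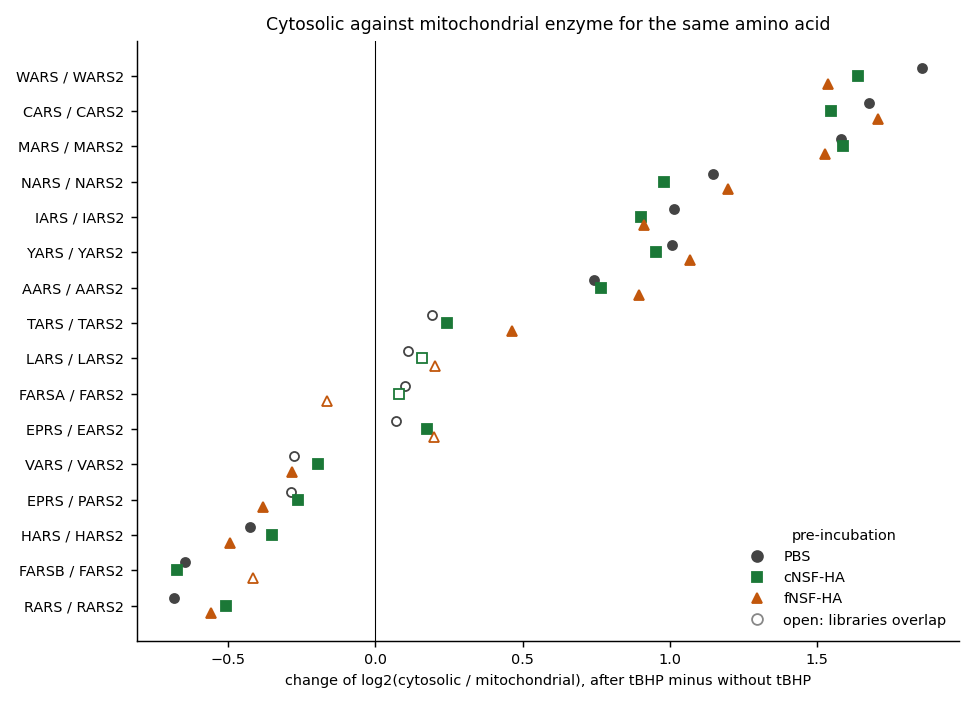
Change after tBHP of the log2 ratio of cytosolic to mitochondrial enzyme (x axis) for 16 pairs, with a circle for PBS, a square for cNSF-HA, a triangle for fNSF-HA and open symbols where the ratios of the 3 libraries with and the 3 without tBHP overlap. The upper 7 pairs, from WARS over WARS2 to AARS over AARS2, lie at 0.74 or more in every pre-incubation.

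Levels were compared between genes per exon kilobase (normalized counts divided by the length of the merged GENCODE exons, so that long rare exons lower a value). In PBS cells without tBHP the median level was 782 per exon kilobase over the 20 cytosolic genes (range 108 to 1638) and 124 over the 15 mitochondrial genes (35.2 to 750). GARS (1638), SARS (1328), NARS (1136) and KARS (1115) were the highest cytosolic genes and CARS (108) the lowest. IARS2 (750) led the mitochondrial genes, followed by RARS2 (371) and HARS2 (279), and VARS2 (35.2) and FARS2 (40.6) were lowest, in an order that is uncertain because of the exon bases that VARS2 shares with another gene. The cytosolic gene was above its mitochondrial counterpart in 15 of 16 pairs, from 1.40-fold (IARS over IARS2) to 23.9-fold (EPRS over PARS2). The exception was CARS, at 0.903 of CARS2. After tBHP the level of CARS was 2.88 times that of CARS2, and the ratio of WARS to WARS2 went from 5.83 to 21.1, of MARS to MARS2 from 7.30 to 21.9 and of NARS to NARS2 from 11.2 to 24.8. HARS over HARS2 went the other way, from 1.54 to 1.15. After tBHP the median level was 950 per exon kilobase for the cytosolic genes and 139 for the mitochondrial genes.

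**Figure D4:**
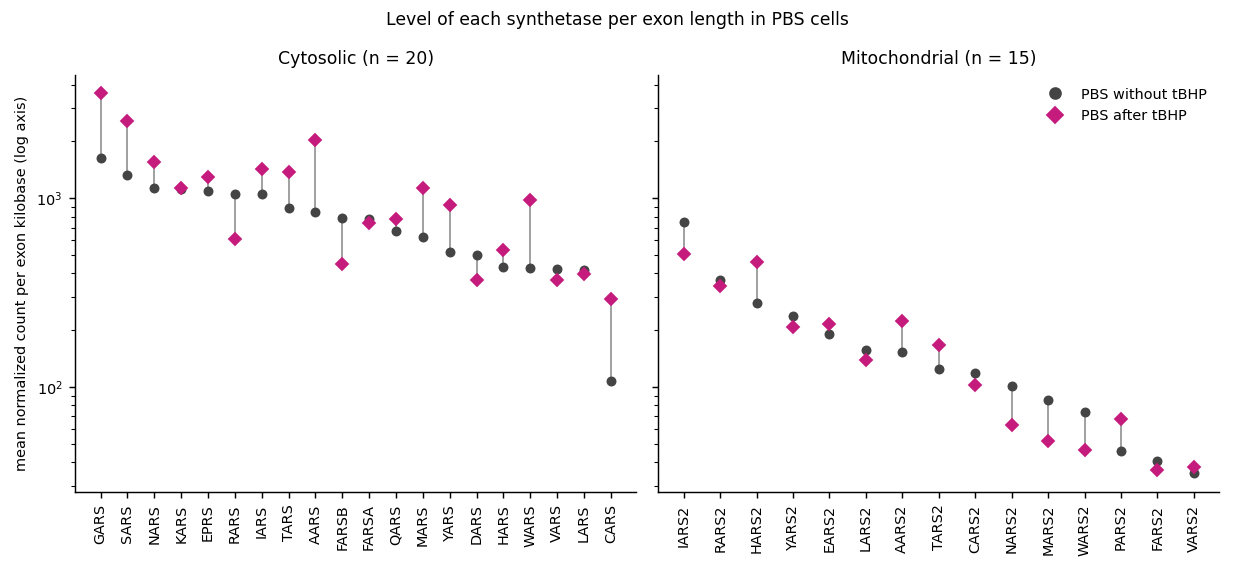
Mean level per exon kilobase in PBS cells (y axis, log scale) of each synthetase without tBHP (circle) and after it (diamond), each the mean of 3 libraries. Genes are ordered by their level without tBHP, from GARS at 1638 to CARS at 108 and from IARS2 at 750 to VARS2 at 35.2.

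The same contrast was made in cells that had received hyaluronan. After cNSF-HA, 13 cytosolic genes were called higher and 3 lower, and 4 mitochondrial genes higher and 5 lower, beside 24% of all genes called higher and 26.8% lower. After fNSF-HA, 13 cytosolic genes were called higher and 4 lower, and 5 mitochondrial genes higher and 6 lower, beside 19.2% and 22.7% of all genes. In all 3 pre-incubations the call was higher for 13 cytosolic genes, lower for DARS, FARSB and RARS and absent for FARSA, KARS and LARS. With the GC and length trend removed, 13 cytosolic genes were again called higher in each, but with LARS in place of QARS, which was called in none (-0.03, 0.05 and 0.05). In that fit DARS was called lower only after cNSF-HA, and FARSA and VARS lower in all 3, beside 25.8% of all genes called higher and 30% lower after cNSF-HA and 24.1% and 31.3% after fNSF-HA. Of the mitochondrial genes, AARS2, HARS2, PARS2 and TARS2 were higher and IARS2, MARS2, NARS2 and WARS2 lower in all 3, and FARS2, RARS2 and VARS2 were called in none. The call differed for 5 genes, of which VARS, CARS2 and LARS2 were called lower in all 3 with the trend removed. VARS had log2 changes of -0.20 (PBS), -0.07 (cNSF-HA) and -0.38 (fNSF-HA, adjusted p by limma = 0.027), and its libraries of fNSF-HA after tBHP were at 2087, 1440 and 2477 normalized counts, the lowest in replicate 2, without which the change was -0.16. CARS2 was called lower in PBS and fNSF-HA cells (-0.22 and -0.33) but not in cNSF-HA cells (-0.14). EARS2 was called higher in PBS and fNSF-HA cells (0.17 and 0.18) but not in cNSF-HA cells (0.10). LARS2 was called lower only in cNSF-HA cells (-0.21, against -0.18 and -0.14), and YARS2 only in fNSF-HA cells (-0.27, against -0.18 and -0.07). After fNSF-HA, leaving out 1 library cost DARS, QARS, VARS, AARS2, EARS2, WARS2 and YARS2 their calls in 1 to 5 of the 6 fits each, and after cNSF-HA this held for LARS2, PARS2 and WARS2 in 1 to 4. None of the differences between pre-incubations passed its own test, with adjusted p by limma of at least 0.667 for any synthetase.

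Over all 18 libraries, 12 cytosolic genes had each of the 9 tBHP libraries above each of the 9 without tBHP, and FARSB and RARS had each of them below. QARS, called higher, and DARS, called lower, overlapped. HARS2, TARS2 and EARS2 lay wholly above and IARS2, MARS2 and NARS2 wholly below, EARS2 by a small margin (1169 after tBHP against 1166 without it). Of all genes tested, 12.5% lay wholly above and 15.3% wholly below.

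**Figure D5:**
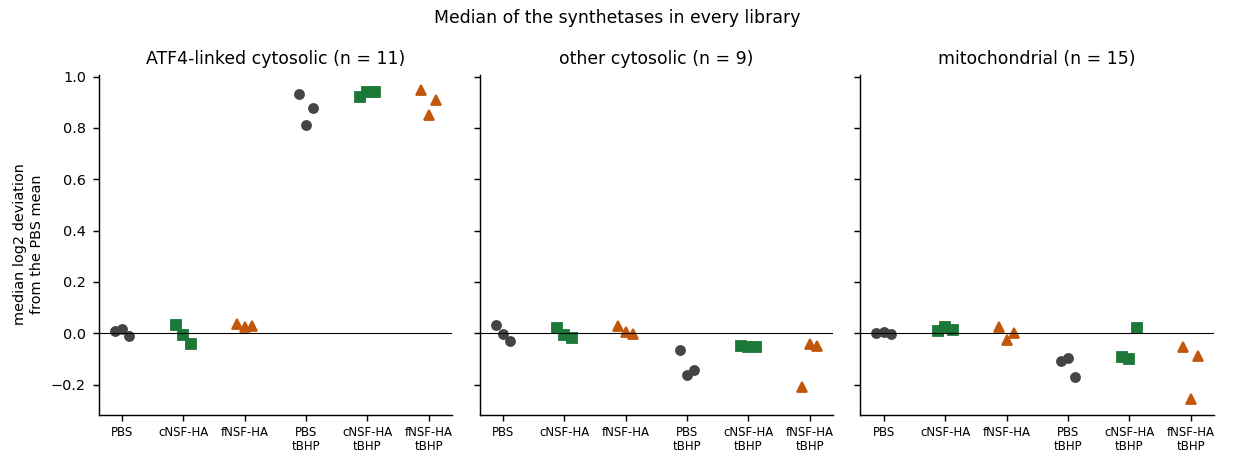
Median log2 deviation from the mean of the PBS libraries without tBHP (y axis) over the 11 ATF4-linked cytosolic, the 9 other cytosolic and the 15 mitochondrial synthetases, 1 point per library by group on the x axis. The first set lies at 0.81 to 0.95 in all 9 tBHP libraries, the other sets at -0.26 to 0.02.

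Hyaluronan was then compared with PBS and between its forms. Without tBHP, no synthetase was called between cNSF-HA and PBS, fNSF-HA and PBS, or cNSF-HA and fNSF-HA, and 0% of all genes were called in each. No synthetase had an unadjusted p under 0.05 in these 3 comparisons, beside 126, 109 and 206 of all genes, and edgeR and DESeq2 called no synthetase. The fit shares its estimate of the spread with the more variable tBHP libraries. With limma on the compared groups alone, cells given cNSF-HA had 244 genes called higher and 736 called lower relative to those given fNSF-HA (7.16% of all genes), 21 were called between fNSF-HA and PBS and 0 between cNSF-HA and PBS. No synthetase was among them, and the number with an unadjusted p under 0.05 was then 1, 2 and 1 for cNSF-HA against PBS, fNSF-HA against PBS and cNSF-HA against fNSF-HA. Beside these stood 1494, 1174 and 2836 of all 13686 genes. The log2 differences of the 35 genes between cNSF-HA and fNSF-HA ran from -0.12 to 0.17. The libraries of the 2 hyaluronan groups did not overlap for 3 cytosolic genes and no mitochondrial gene, beside 25% of all genes tested.

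After tBHP, limma called no synthetase in any of the 3 comparisons, beside 0% of all genes for cNSF-HA against PBS, 0.139% for fNSF-HA against PBS and 0% for cNSF-HA against fNSF-HA. At an unadjusted p under 0.05 there were 1, 7 and 7 synthetases, beside 1183, 3102 and 4412 of all 13686 genes. The shared estimate of the spread also rests on the less variable libraries without tBHP. With limma on the compared groups alone, there were 1, 2 and 0 synthetases, beside 535, 689 and 1001 of all genes, and no synthetase was called. With all libraries, the smallest unadjusted p in each comparison was in RARS or DARS, which fell after tBHP. RARS was at 1985, 2036 and 2227 normalized counts after PBS and tBHP, at 2356, 2455 and 2449 after cNSF-HA and tBHP, and at 2655, 2648 and 2336 after fNSF-HA and tBHP. The PBS libraries were thus the lowest in both comparisons, with log2 differences of 0.22 (SE 0.06, adjusted p by limma = 0.490) for cNSF-HA and 0.29 (SE 0.06, adjusted p by limma = 0.061) for fNSF-HA. FARSB was at 1424, 1600 and 1518 after PBS, 1573, 1621 and 1731 after cNSF-HA and 1886, 1951 and 1704 after fNSF-HA, a log2 difference of 0.29 (SE 0.07, adjusted p by limma = 0.069) between fNSF-HA and PBS. DESeq2 on the recovered reads called both genes between fNSF-HA and PBS, 2 of the 35 synthetases, beside 3.3% of all genes. DARS, at 1477, 1429 and 1407 after cNSF-HA and 1726, 1939 and 1502 after fNSF-HA, differed by -0.25 between cNSF-HA and fNSF-HA (SE 0.08, adjusted p by limma = 0.098), and DESeq2 called it, 1 of the 35 synthetases, beside 5.79% of all genes. edgeR called no synthetase in any of them. The largest differences between cNSF-HA and fNSF-HA had the opposite sign. FARSA was at 1921, 1818 and 2245 after cNSF-HA and 1622, 1130 and 1917 after fNSF-HA, a log2 difference of 0.39 (SE 0.13, adjusted p by limma = 0.098), and that of VARS was 0.33 (SE 0.13, adjusted p by limma = 0.112). Replicate 2 of fNSF-HA was the lowest library for both genes, and the groups overlapped. Against PBS, fNSF-HA differed by -0.24 for FARSA and -0.20 for VARS. Once the GC and length trend was removed, these differences were smaller, at 0.15 (cNSF-HA) and 0.05 (fNSF-HA) against PBS for RARS, 0.13 between fNSF-HA and PBS for FARSB, and -0.09 for DARS, 0.02 for FARSA and -0.05 for VARS between cNSF-HA and fNSF-HA. In that fit FARSB differed more between cNSF-HA and PBS (0.23, SE 0.08, adjusted p by limma = 0.193), and no synthetase was called. Between cNSF-HA and fNSF-HA, the libraries did not overlap for 2 synthetases, beside 13.4% of all genes.

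The counts after tBHP moved with single libraries. Without replicate 3 of fNSF-HA after tBHP, 13 of the 35 synthetases were called between fNSF-HA and PBS, beside 29.4% of all genes, and 14 between cNSF-HA and fNSF-HA, beside 40.8%. Between fNSF-HA and PBS, 171 genes were called without replicate 2 of PBS after tBHP, FARSB among them, 4 without replicate 1 of it and 0 without replicate 3 of it or replicate 1 or 2 of fNSF-HA after tBHP, against 19 with all libraries. Between cNSF-HA and fNSF-HA, the number of genes with an unadjusted p under 0.05 was 4412 with all libraries, 1183 without replicate 2 of fNSF-HA after tBHP and 2568 without replicate 3 of cNSF-HA after tBHP, and the number of synthetases was 7, 1 and 3. The PBS libraries serve in both comparisons with hyaluronan. The tBHP response was also compared between pre-incubations, which gave 0 synthetases and 0% of all genes for cNSF-HA minus PBS, 0% for fNSF-HA minus PBS and 0% for cNSF-HA minus fNSF-HA. At an unadjusted p under 0.05 there were 1, 2 and 0 synthetases, beside 555, 942 and 533 of all 13686 genes. They were RARS in the first (0.21, SE 0.09) and RARS (0.26, SE 0.09) and FARSB (0.25, SE 0.09) in the second, and neither edgeR nor DESeq2 called any synthetase. Removing the GC and length trend gave 0.08 and 0.04 for RARS and 0.13 for FARSB. In that fit the response of FARSB was -0.49 in PBS cells, -0.27 after cNSF-HA and -0.36 after fNSF-HA, so it differed from PBS more after cNSF-HA.

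Sorted by structural class, 6 of the 9 class I cytosolic synthetases were called higher and 1 lower in PBS cells. Of the 10 class II enzymes 6 were higher and 2 lower, beside 24.2% of all genes called higher and 26.9% lower. EPRS, which has both classes and was called higher, was counted in neither. Of the 11 genes of the multisynthetase complex 4 were higher (EPRS, IARS, MARS and QARS), 4 lower (DARS, RARS, AIMP1 and EEF1E1) and 3 not called (KARS, LARS and AIMP2). With the GC and length trend removed, QARS (-0.03) and DARS (-0.09) were not called and LARS (0.27) was called higher. EEF1E1, a scaffold of the complex, fell from 239, 245 and 247 normalized counts to 48.8, 91.5 and 68.9, a log2 change of -1.84 (SE 0.25), which exceeded the fall of any synthetase. AIMP1 fell by 0.35 on the log2 scale. Both changes are from the fit with the trend left in, and the GC content of the transcripts was 40.1% for EEF1E1 and 38.1% for AIMP1.

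Among the 22 related genes of tRNA handling and elongation that were tested, 4 were called higher and 8 lower in PBS cells, beside 24.2% and 26.9% of all genes. Of the trans-editing factors, which remove wrong amino acids from tRNA, DTD2 fell (-0.80, SE 0.19). Of the genes of tRNA maturation and export, TRNT1, which adds the CCA end, fell (-0.57) and so did ELAC1 (-0.48), a tRNA-processing nuclease, while XPOT, the tRNA exporter, rose (0.32, SE 0.09). Among the cytosolic elongation factors EEF2 (0.53), EEF1A1 (0.40) and EEF1B2 (0.26) rose, and EEF1G was listed at 0. Of the 8 genes of mitochondrial tRNA charging and elongation, none rose and 3 fell, QRSL1 (-0.57), a subunit of the glutaminyl-tRNA amidotransferase that takes the place of a mitochondrial glutaminyl enzyme, and the elongation factors GFM1 (-0.39) and GFM2 (-0.34). After cNSF-HA, 6 of the 22 related genes were called higher and 6 lower, beside 24% and 26.8% of all genes. TUFM, the mitochondrial elongation factor Tu (0.31, adjusted p by limma = 0.021), and EEF1D (0.64) were higher there, against 0.17 and 0.36 in PBS cells, where neither was called. After fNSF-HA, 3 were called higher and 6 lower, beside 19.2% and 22.7%. The latter 6 included MTFMT, which formylates the mitochondrial initiator tRNA (-0.29, against -0.04 in PBS cells). EEF2 (0.21) and TRNT1 (-0.22) were not called after fNSF-HA, and AIMP1 (-0.08 and -0.13) and ELAC1 (-0.26 in both) were not called after either hyaluronan. In fNSF-HA after tBHP, EEF2 was at 65491, 45524 and 77964 normalized counts and MTFMT at 298, 230 and 288, both lowest in replicate 2. In cNSF-HA after tBHP, EEF1D was at 5479, 5888 and 7450, highest in replicate 3. How the calls of these related genes depend on single libraries is not given. XPOT, EEF1A1 and EEF1B2 were higher and DTD2, EEF1E1, QRSL1, GFM1 and GFM2 lower in all 3 pre-incubations. No difference between pre-incubations passed its own test for any of these related genes.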

How the data were processed

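The authors trimmed, aligned and counted reads (Trimmomatic 0.32, STAR 2.5.2b, featureCounts of Subread 1.5.0-p3 and GRCh38.p7 per the submitters' processing notes) from unstranded single-end libraries with reads of 100 nt, and deposited a normalized signal per gene, the count divided by the DESeq2 size factor. The deposited p-values, q-values and their rank score (3 columns) hold a comparison of the authors and were not used. Whole reads were recovered from 100% of values within 0.01 of a read.

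Here log2(value + 1) was fitted with limma 3.58.1 (R 4.3.3, trend, two-sided) over genes with a mean of at least 10, with 1 coefficient per group and all 18 libraries. Fold changes of low genes are understated on this scale. Differences of responses were contrasts of the same fit. edgeR 4.0.16 (quasi-likelihood) and DESeq2 1.42.0 on the reads, other pseudocounts, filters and scalings, a GC and length trend removed, a replicate block, the compared groups alone and each library left out were alternatives. The scripts were tested on simulated data.

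Per-library values are given for up to 12 cytosolic and 10 mitochondrial genes called in PBS cells, by size of change. IARS, FARSA, VARS and the genes of the comparisons after tBHP were described beyond that. The synthetases, the gene lists and the motif were chosen with earlier results of these data known. Positions and exon lengths are from GENCODE (GRCh38), promoters from RefSeq. An item of the lists was left out and is not reported here.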

Additional observations from a re-analysis of the deposited data

How the results depend on the processing

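With the GC and length trend removed, 8 mitochondrial genes were called lower in PBS cells and 5 cytosolic genes lower after cNSF-HA. The same fit turned the sign of 6 log2 changes in PBS cells, LARS (0.27), QARS (-0.028), EARS2 (-0.047), RARS2 (0.19), VARS2 (-0.20) and KARS (-0.001), of 5 after cNSF-HA, FARSA (-0.30), LARS (0.23), EARS2 (-0.14), RARS2 (0.10) and VARS2 (-0.12), and of KARS (-0.04) after fNSF-HA. It tested 12503 genes, those with a GC value. In the fNSF-HA response, 2 cytosolic genes were called lower with no filter, TMM scaling, edgeR or the compared groups alone. Mitochondrial genes called higher there numbered 3 with no filter and 2 with the compared groups alone, and those called lower 3 with the compared groups alone. DESeq2 called 2 synthetases between fNSF-HA and PBS after tBHP and 1 between cNSF-HA and fNSF-HA. With no tBHP, the compared groups alone gave 980 genes called between both hyaluronans and 21 between fNSF-HA and PBS, against 0 in both with all libraries. After tBHP, DESeq2 called 451 of all genes between fNSF-HA and PBS and 793 between cNSF-HA and fNSF-HA, against 19 and 0 with limma. The causes of these changes were not tested.

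With 1 library left out, mitochondrial genes called higher ranged from 3 to 5 in PBS cells and from 3 to 5 in fNSF-HA cells, where 3 were called without replicate 2 or 3 of fNSF-HA or replicate 1 or 3 of fNSF-HA after tBHP. Mitochondrial genes called lower in cNSF-HA cells ranged from 3 to 5, with 3 without replicate 3 of cNSF-HA before or after tBHP. Cytosolic genes called lower in fNSF-HA cells ranged from 2 to 4, with 2 when any 1 replicate of fNSF-HA before tBHP was left out. Synthetases called after tBHP ranged from 0 to 13 between fNSF-HA and PBS and from 0 to 14 between cNSF-HA and fNSF-HA. Of 79 calls in the 3 responses, 65 were kept with each library left out.

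With the replicate block, 3436 of all genes were called higher and 3792 lower in PBS cells, against 3317 and 3678 without it. For the synthetases, 13 cytosolic genes were called higher and 3 lower in PBS cells and 5 mitochondrial genes higher and 6 lower with the block. LARS2 gained a call there (adjusted p by limma = 0.043) and WARS2 lost one in fNSF-HA cells (adjusted p by limma = 0.054). The deviations of same-numbered libraries from their group means had 45 correlations of -0.12 to 0.33, with a median of 0.034. Such values cannot show whether libraries of the same number were handled together, and the labels do not say. With 3 libraries per group, precision is set by the spread between replicates. TMM scaling moved the median log2 change of all genes in PBS cells from 0.004 to 0.068, and no synthetase changed direction past the threshold with it.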
